A study of Mus musculus with 53 samples.

Results

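The nuclear genes of the mitochondrial respiratory chain were followed across mouse epithelial tissues. A gene was a member if its symbol in the array annotation begins with Nduf, Sdh, Uqcr or Atp5, or is Cox4 to Cox8 with a letter suffix. No measured value enters this rule, but the members were chosen with earlier results of these data known. The rule gave 97 genes. The Gene ST arrays measured 93 of them among 19938 genes, the 3′ arrays measured 94 among 18194 genes, and 90 were on both. Cox7b, Ndufa11 and Ndufs6 had a probe set of their own only on the Gene ST arrays, and Cox7c, Ndufaf8, Ndufb1 and Ndufb4 only on the 3′ arrays. The probe set of Ndufb4 was dim, at percentile 7.6 of the mean level of all genes there, and that of Cox7c lay at percentile 56.3. Of the 93 members on the Gene ST arrays, 34 belong to complex I, 4 to complex II, 8 to complex III, 19 to complex IV and 17 to complex V, and 11 are assembly factors that are not part of a finished complex; the 3′ arrays held 1 assembly factor more.

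Complex I (NADH dehydrogenase, Nduf genes) and complex II (succinate dehydrogenase, Sdh genes) pass electrons to ubiquinone, complex III (Uqcr genes) passes them to cytochrome c, and complex IV (cytochrome c oxidase, Cox genes) passes them to oxygen. The proton gradient that results drives complex V, the ATP synthase (Atp5 genes). Most subunits are present in all cells that hold mitochondria, but complex IV has paralogs that replace a common subunit in some tissues. Cox6a2, Cox7a1 and Cox8b are the forms of heart and skeletal muscle, Cox4i2 is found in lung and vessel wall cells, and Cox6b2, Cox7b2 and Cox8c are best known from testis. Ndufa4l2, the paralog of the complex IV subunit Ndufa4, is a target of the hypoxia-inducible factors.

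The study profiled total RNA of whole tissues, each group with 3 arrays except E14.5 bladder with 2. On Gene ST arrays it held wildtype CB6 cornea at 7 ages, before birth (E14.5, E15.5, E17.5) and after it (P3, P7, P14, P28), with lung and trachea at E18.5. On 3′ arrays it held wildtype CB6 bladder and dorsal skin at E14.5 and E16.5, skin, stomach, esophagus and proximal small intestine at E18.5, and E18.5 bladder from Get1 +/- mice, which carry 1 inactive copy of the grainyhead-like gene Get1. By the series text, the arrays of cornea, of bladder and of E18.5 skin were taken from earlier work of the same laboratory. The labels do not say whether the samples of 1 group are different animals, so the p-values measure the spread between these samples, which may be technical. Levels are given as log2 of the array intensity plus 16, so that 4 is the floor, and each table was normalized on its own. A gene is called changed at an adjusted p under 0.05 in limma, with no limit on its size. A fold change on this scale understates the change of a dim gene. In whole tissue, fewer cells of a type and less RNA per cell cannot be told apart.

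Promoters of 81 of the 97 members were in the RefSeq table (mouse build GRCm38.p6), and the 250 bases before the start of transcription were searched on both strands for the core of the site of NRF1 (GCGCA and GCGC with any 1 base between them) and of the ETS factors that include GABP, CCGGAAG (read as CTTCCGG on the other strand). These factors are known regulators of respiratory chain genes. The NRF1 letters stood in 14 of the 81 promoters (17.3%), against 1144 of 27025 genes (4.23%), and the ETS letters in 16 (19.8%), against 2115 genes (7.83%). By complex, the NRF1 letters were found in 6 of 33 promoters of complex I, 2 of 3 of complex II, 0 of 5 of complex III, 1 of 14 of complex IV, 4 of 15 of complex V and 1 of 11 assembly factors. A match describes the letters only, and a promoter without them may still be bound. The 5 below belong to members whose values are given later, with capitals at every match. They show promoters with several matches (Cox6a1, Sdhd), with 1 match (Ndufa11, Ndufaf4) and with none (the muscle form Cox8b). A lack of matches was not particular to muscle forms, as the common forms Cox8a and Cox5a had none either. Cox6a1, the common form of subunit 6a, lies at chr5:115348959-115349208 on the minus strand, the complex II anchor Sdhd at chr9:50603850-50604099 (minus), the complex I subunit Ndufa11 at chr17:56717512-56717761 (plus), the complex I assembly factor Ndufaf4 at chr4:24897833-24898082 (plus), and Cox8b at chr7:140900447-140900696 (minus).
Cox6a1: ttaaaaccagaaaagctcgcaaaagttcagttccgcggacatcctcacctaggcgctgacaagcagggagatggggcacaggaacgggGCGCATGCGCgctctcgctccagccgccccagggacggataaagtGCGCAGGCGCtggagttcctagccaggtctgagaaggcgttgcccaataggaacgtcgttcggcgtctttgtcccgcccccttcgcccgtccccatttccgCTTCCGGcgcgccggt
Sdhd: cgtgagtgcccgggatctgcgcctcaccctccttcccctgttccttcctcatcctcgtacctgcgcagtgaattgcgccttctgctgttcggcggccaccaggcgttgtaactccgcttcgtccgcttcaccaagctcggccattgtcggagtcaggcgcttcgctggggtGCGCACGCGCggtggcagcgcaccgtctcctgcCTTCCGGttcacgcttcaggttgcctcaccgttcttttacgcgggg
Ndufa11: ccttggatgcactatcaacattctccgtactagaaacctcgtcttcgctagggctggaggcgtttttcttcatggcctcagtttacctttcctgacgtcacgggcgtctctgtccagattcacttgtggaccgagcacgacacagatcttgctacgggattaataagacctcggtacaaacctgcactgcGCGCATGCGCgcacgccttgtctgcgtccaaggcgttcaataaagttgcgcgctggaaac
Ndufaf4: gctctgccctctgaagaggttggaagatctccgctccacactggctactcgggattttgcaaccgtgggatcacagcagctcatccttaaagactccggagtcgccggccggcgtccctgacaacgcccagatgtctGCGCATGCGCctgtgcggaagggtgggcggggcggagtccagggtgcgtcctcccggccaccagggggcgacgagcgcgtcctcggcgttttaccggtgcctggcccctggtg
Cox8b: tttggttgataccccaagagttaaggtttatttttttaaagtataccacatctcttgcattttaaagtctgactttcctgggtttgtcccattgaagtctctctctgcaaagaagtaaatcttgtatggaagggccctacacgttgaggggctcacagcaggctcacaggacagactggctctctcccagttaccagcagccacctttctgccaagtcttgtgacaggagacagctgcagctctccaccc
The Cox6a1 window held 26 CpG dinucleotides, that of Sdhd 27, Ndufa11 20 and Ndufaf4 23, and that of Cox8b 1.

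The arrays of each table were clustered by their correlation and cut into 2 sets, a number fixed for the clustering. Among the 3′ arrays, the 17 of bladder, esophagus, stomach and E14.5 skin correlated at 0.89 to 0.981 over all probe sets, the 9 of small intestine and of E16.5 and E18.5 skin at 0.821 to 0.989, and arrays of different sets at 0.61 to 0.767. Tissue and array set cannot be told apart between them, and values are compared here mostly within a set. In the second set, small intestine correlated with E18.5 skin at 0.82 to 0.89, and E16.5 with E18.5 skin at 0.94 to 0.96. On the Gene ST arrays, the sets were cornea (21 arrays, 0.853 to 0.981) and lung with trachea (6 arrays, 0.848 to 0.983). Arrays of these different sets correlated at 0.726 to 0.834, close below the lowest values within a set. Several arrays went against their labels. The arrays labelled lung summed to 16.09 to 16.14 over thymocyte genes, where no other Gene ST array passed 10.44, and their lung markers (10.63 to 10.8) lay within the range of cornea (10.42 to 10.97), so they are called lung-labelled below. Small intestine replicate 3 held epidermal markers at 14.41 and stomach markers at 14.06, against at most 8.14 and 10.21 in the other small intestine arrays. Intestinal markers reached 13.67 and 13.72 on 2 of the E14.5 skin arrays and 7.39 on the third, and lung markers 14.27 and 14.51 on 2 of the E18.5 skin arrays and 6.63 on the third. At E14.5, the cornea arrays were bright in lens genes (12.45, 16.08 and 16.08, against 9.91 to 10.29 at E15.5) and in erythroid genes (15.09 to 15.69, against 9.44 to 11.68 at later ages). Skeletal muscle genes were bright on 1 of the E15.5 cornea arrays (14.35, against 11.74 and 12.44) and on 2 of the E17.5 arrays (15.49 and 15.73, against 13.26). None of the 13 proteins that mitochondrial DNA encodes was measured.

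The cornea arrays follow the tissue from its first embryonic layers to the open eye. In the first step, from E14.5 to E15.5, 30 of the 93 members fell and 1, Ndufa4l2, rose, the most calls of any 2 consecutive ages. Over all genes 11.4% were called lower and 15.0% higher in this step. The members' median difference was -0.25 on the log2 scale against -0.02 for all genes, 73 members lay below 0, and for 54 of them the 3 arrays of E15.5 all lay below those of E14.5, which held for 20.7% of all genes. The falls were spread over the chain: 12 of 34 complex I subunits, 1 of 4 in complex II, 3 of 8 in complex III, 3 of 19 in complex IV, 5 of 17 in complex V and 6 of 11 assembly factors. None exceeded a log2 difference of 0.94 in size.

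In complex I, the accessory subunit Ndufa7 stood at 10.26, 10.61 and 10.69 in E14.5 cornea and 9.82, 9.70 and 9.83 at E15.5. The groups did not overlap, and the gene fell by 0.74 ± 0.12 (SE, limma adjusted p = 0.000111). Ndufab1, the mitochondrial acyl carrier protein that is also a subunit of complex I, went from 10.65, 10.64 and 10.68 to 10.13, 10.02 and 10.09, a fall by 0.58 ± 0.09 (limma adjusted p = 5.47e-05). In complex III, the small subunits Uqcrq and Uqcr10 and the core subunit Uqcrc2 were called. Uqcrq went from 10.80, 10.93 and 10.99 to 10.31, 10.17 and 10.12 and Uqcr10 from 11.35, 11.32 and 11.34 to 10.82, 10.67 and 10.91. Both fell without overlap, Uqcrq by 0.71 ± 0.12 and Uqcr10 by 0.54 ± 0.12 (limma adjusted p = 0.000113 and 0.00173). Atp5mpl, a small membrane subunit of the ATP synthase, fell by 0.58 ± 0.12 (limma adjusted p = 0.000702), from 12.82, 12.73 and 12.74 to 12.28, 12.10 and 12.19.

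The assembly factors held the highest share of falls. Ndufaf5, which modifies a complex I subunit while the complex is built, stood at 10.13, 10.11 and 10.31 at E14.5 and 9.44, 9.18 and 9.13 at E15.5, and fell by 0.94 ± 0.17 (limma adjusted p = 0.00021). Ndufaf4 fell by 0.85 ± 0.2 (limma adjusted p = 0.00256), from 10.08, 10.39 and 10.75 to 9.64, 9.62 and 9.43, and Ndufaf2, which acts late in complex I assembly, by 0.67 ± 0.15 (limma adjusted p = 0.00163). Sdhaf3, a complex II assembly factor, fell by 0.59 ± 0.16 (limma adjusted p = 0.00955), a call that was lost without E14.5 replicate 3. The 3 called members with a second probe set on the array had the same direction there. The count of falls fell to 19, and that of rises went from 1 to 2, in the values as deposited. The lens and erythroid genes named above were lower at E15.5 than at E14.5, and their part in these differences was not tested.

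**Figure D1:**
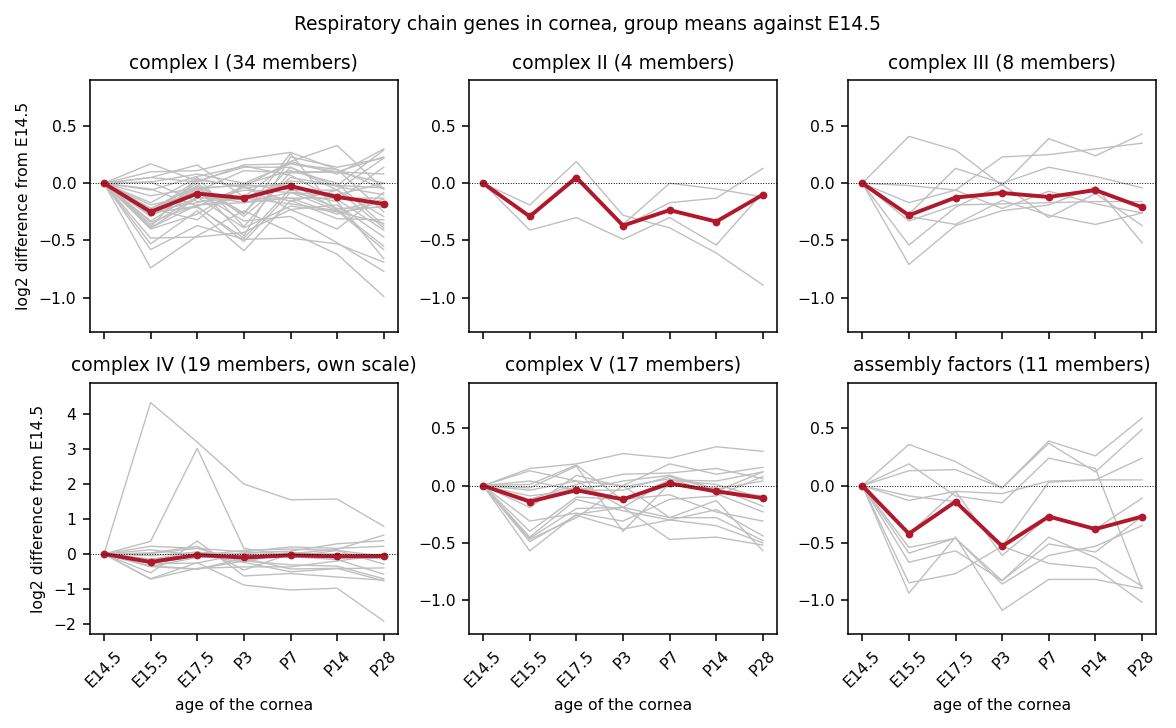
Difference of each member's cornea mean from its E14.5 mean (y axis, log2 intensity + 16) at the 7 cornea ages (x axis), in 6 panels by complex; grey lines are members, red lines the median of the panel, and the complex IV panel has its own scale. The medians dip at E15.5 in all 6 panels, and the complex IV panel also shows the rise of Ndufa4l2 by 4.32 at E15.5 and the E17.5 peak of Cox8b.

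From E15.5 to E17.5, 2 members rose, Ndufa2 and Cox8b, and none fell (0.441% of all genes were called higher and 0.0853% lower). The members' median was 0.14 against 0.01 for all genes and 75 of 93 lay above 0. This step shares the E15.5 arrays with the step before it, so a low E15.5 group enters both. Ndufa2, a small complex I subunit, went from 11.75, 11.69 and 11.71 at E15.5 to 12.07, 12.34 and 12.01 at E17.5, a rise of 0.42 ± 0.1 (limma adjusted p = 0.0498). That call was lost without any of 5 of the 6 arrays, all but E15.5 replicate 1. The count of called members went to 5 without E15.5 replicate 1 and to 0 without E15.5 replicate 2 or 3 or E17.5 replicate 1 or 3. Without the 3 arrays bright in muscle genes it was 7.

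From E17.5 to P3, 14 members fell and none rose (6.69% and 2.75% of all genes); the count without 3 muscle-bright arrays was 10 lower and 4 higher. Complex II held 3 of the falls among its 4 members, complex IV held 5, and complex III none. Sdha, the flavoprotein that oxidizes succinate, stood at 10.92, 10.87 and 10.92 at E17.5 and 10.41, 10.51 and 10.44 at P3. The groups did not overlap and the fall was by 0.45 ± 0.09 (limma adjusted p = 0.00459). Its membrane anchors Sdhc and Sdhd fell by 0.48 ± 0.12 and 0.38 ± 0.11 (limma adjusted p = 0.0173 and 0.0314), each lost without E17.5 replicate 2, P3 replicate 2 or P3 replicate 3. Atp5b, the catalytic beta subunit of the ATP synthase, went from 12.46, 12.57 and 12.58 to 11.90, 11.84 and 12.16, a fall by 0.57 ± 0.1 (limma adjusted p = 0.00144). Cox4i1, the common form of the largest nuclear complex IV subunit, fell by 0.36 ± 0.09 (limma adjusted p = 0.0139), lost without E17.5 replicate 2 or P3 replicate 2. The count of 14 went to 9 without E17.5 replicate 1, E17.5 replicate 3 or P3 replicate 1, to 7 without E17.5 replicate 2 and to 6 without P3 replicate 2. Fitted on these 2 ages alone, no member was called.

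From P3 to P7, 4 members rose and none fell (4.63% and 2.57% of all genes). Atp5b returned to 12.50, 12.38 and 12.30, a rise of 0.43 ± 0.1 (limma adjusted p = 0.00943), and the complex I subunit Ndufa9 rose by 0.68 ± 0.13 (limma adjusted p = 0.00251), from 10.78, 10.84 and 11.33 to 11.67, 11.65 and 11.67. All P7 arrays lay above those of P3 for both. The complex I subunits Ndufa1 and Ndufb8 also rose, by 0.52 ± 0.13 and 0.44 ± 0.11 (limma adjusted p = 0.0132 and 0.0172). Without P3 replicate 2 the count was 1, the calls of Atp5b, Ndufa1 and Ndufb8 being lost; that of Ndufa1 was also lost without P3 replicate 1 or P7 replicate 1, that of Ndufb8 without P3 replicate 1 or P7 replicate 2 or 3, and that of Atp5b without P7 replicate 1. From P7 to P14 limma called no member (3 were at an unadjusted p under 0.05), where 0.0201% of all genes were called higher and 0.00502% lower.

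From P14 to P28 the eyelids are open and the epithelium stratifies further. In this step 9 members fell and none rose (6.6% and 7.1% of all genes). In the values as deposited 16 rose and 2 fell. Of the called members 88.9% were higher, against 0% after quantile normalization, so the direction of this step as a whole rests on the scaling. The share of all genes called as deposited is not given here. The falls that were largest kept their direction in both. Sdhaf1, which helps to insert iron-sulfur clusters into complex II, stood at 10.28, 10.10 and 10.03 at P14 and 9.50, 9.09 and 8.67 at P28, a fall by 1.05 ± 0.17 (limma adjusted p = 0.000152). Cox6b2 fell by 0.94 ± 0.15 (limma adjusted p = 9.09e-05), from 8.97, 9.12 and 9.05 to 8.49, 7.96 and 7.86. Neither gene's groups overlapped. Ndufa13, a complex I subunit, fell by 0.5 ± 0.1, and Atp5g1, which encodes the c subunit of the rotor ring, by 0.45 ± 0.1 (limma adjusted p = 0.00137 and 0.00332), and both calls were lost in the values as deposited. The count was 5 without P14 replicate 2, P28 replicate 2 or P28 replicate 3.

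Set end to end, P28 against E14.5, 31 members fell and 7 rose (23.9% and 19.0% of all genes), with a median of -0.13 against -0.11 for all genes. As deposited, 23 rose and 15 fell (60.5% of the called members higher, against 18.4% after quantile normalization). The median of the members turned from -0.13 to 0.16 while that of all genes moved to -0.16. Cox6b2 had the largest fall, by 1.92 ± 0.15 (3.79-fold, limma adjusted p = 3.74e-10): it stood at 10.26, 10.10 and 9.71 at E14.5, 9.39, 9.30 and 9.24 at E15.5, 9.64, 9.65 and 10.02 at E17.5, 9.19, 9.04 and 9.15 at P3, 8.99, 9.12 and 8.85 at P7, and the P14 and P28 values above. Its E14.5 arrays overlapped those of E17.5 only, and its P28 arrays lay below all others. Ndufa7 fell by 0.99 ± 0.12 and Sdhc by 0.89 ± 0.12 (limma adjusted p = 9.69e-07 and 3.47e-06). Ndufa4, the common paralog of Ndufa4l2, was among the 7 that rose: it stood at 12.50, 12.43 and 12.47 at E14.5 and 12.93, 12.98 and 12.62 at P28, a rise of 0.38 ± 0.12 (limma adjusted p = 0.0115) that was lost without P28 replicate 1 or 2. The flavinylation factor Sdhaf2 rose by 0.59 ± 0.17 (limma adjusted p = 0.00714), lost without E14.5 replicate 1. The core subunit Uqcrc1 rose by 0.44 ± 0.16 (limma adjusted p = 0.0308), lost without E14.5 replicate 1 or 3 or P28 replicate 1 or 3.

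Over the 7 ages together, an F test called 49 of 93 members, close to the 51.6% of all genes. The median range of the age means was 0.48 over the members and 0.55 over all genes. Of the 49, the highest age was E14.5 for 26, and the lowest was P28 for 20, P3 for 15 and E15.5 for 9. The highest and lowest ages were not tallied over all genes, so they are not shown to be particular to the members. All 4 members of complex II were called, 8 of 11 assembly factors, 17 of 34 in complex I, 3 of 8 in complex III, 11 of 19 in complex IV and 6 of 17 in complex V. The ATP synthase had the smallest median range (0.33), and the assembly factors the largest (0.82).

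Ndufa4l2 was the 1 member that rose at E15.5. It stood at 6.64, 6.08 and 6.79 in E14.5 cornea and at 10.09, 11.08 and 11.32 at E15.5. All E15.5 arrays lay far above those of E14.5, by 4.32 ± 0.33 (20.0-fold, limma adjusted p = 3.01e-09). It then stood at 9.52, 10.13 and 9.44 at E17.5 and 8.08, 8.56 and 8.85 at P3, a fall by 1.2 ± 0.33 (limma adjusted p = 0.0256, lost without E17.5 replicate 2, P3 replicate 1 or P3 replicate 2). It stood at 8.65, 7.14 and 8.36 at P7, 8.45, 7.84 and 7.92 at P14 and 7.17, 7.51 and 7.19 at P28. The P3, P7 and P14 arrays overlapped each other, and those of P28 still lay above E14.5. Of 13 measured genes of a list of hypoxia-inducible targets, 7 rose at E15.5 and none fell (15.0% and 11.4% of all genes). Egln3, a prolyl hydroxylase that senses oxygen, rose by 3.7 ± 0.18, P4ha2, a collagen prolyl hydroxylase, by 1.93 ± 0.29, and Higd1a by 1.24 ± 0.29 (limma adjusted p = 1.08e-12, 3.35e-05 and 0.003). At P28, Egln3 was higher than at E14.5 by 5.2 ± 0.18 (limma adjusted p = 1.01e-15). Markers of corneal epithelium were higher in the same step as Ndufa4l2, from sums of 12.04 to 12.41 at E14.5 to 14.6 to 15.14 at E15.5, and were highest at P28 (16.29 to 16.34), where Ndufa4l2 was low; their part was not tested.

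Cox8b was bright on the cornea arrays that held muscle genes. It stood at 8.24, 8.33 and 7.94 at E14.5, 9.78, 7.93 and 7.86 at E15.5, 12.50, 9.06 and 12.02 at E17.5 and 8.27, 8.03 and 8.68 at P3. The arrays at 9.78, 12.50 and 12.02 were the 3 with the brightest skeletal muscle genes in cornea, and from P3 to P28 no array passed 8.68. The rise at E17.5 was 2.67 ± 0.56 (6.36-fold, limma adjusted p = 0.0353), lost without E15.5 replicate 2 or 3 or E17.5 replicate 1 or 3. The fall to P3 was by 2.87 ± 0.56 (7.29-fold, limma adjusted p = 0.00362) and was not called without the 3 muscle-bright arrays. Cox6a2 had the same order on these arrays: 8.73, 7.89 and 7.88 at E15.5, 9.49, 8.33 and 9.40 at E17.5, and 8.05, 8.17 and 8.02 at P3. Its fall to P3 was by 1.0 ± 0.26 (limma adjusted p = 0.0198), lost without E17.5 replicate 1 or 3, P3 replicate 1 or 3, or the 3 arrays. The summed heart muscle genes were at 15.01 and 15.08 on the same 2 arrays of E17.5 and at 11.2 on the third. The part of muscle tissue in these values was not tested. The common forms Cox8a (11.27, 11.58 and 11.07) and Cox6a1 (12.41, 12.35 and 12.36) at E17.5 were called in neither step.

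**Figure D2:**
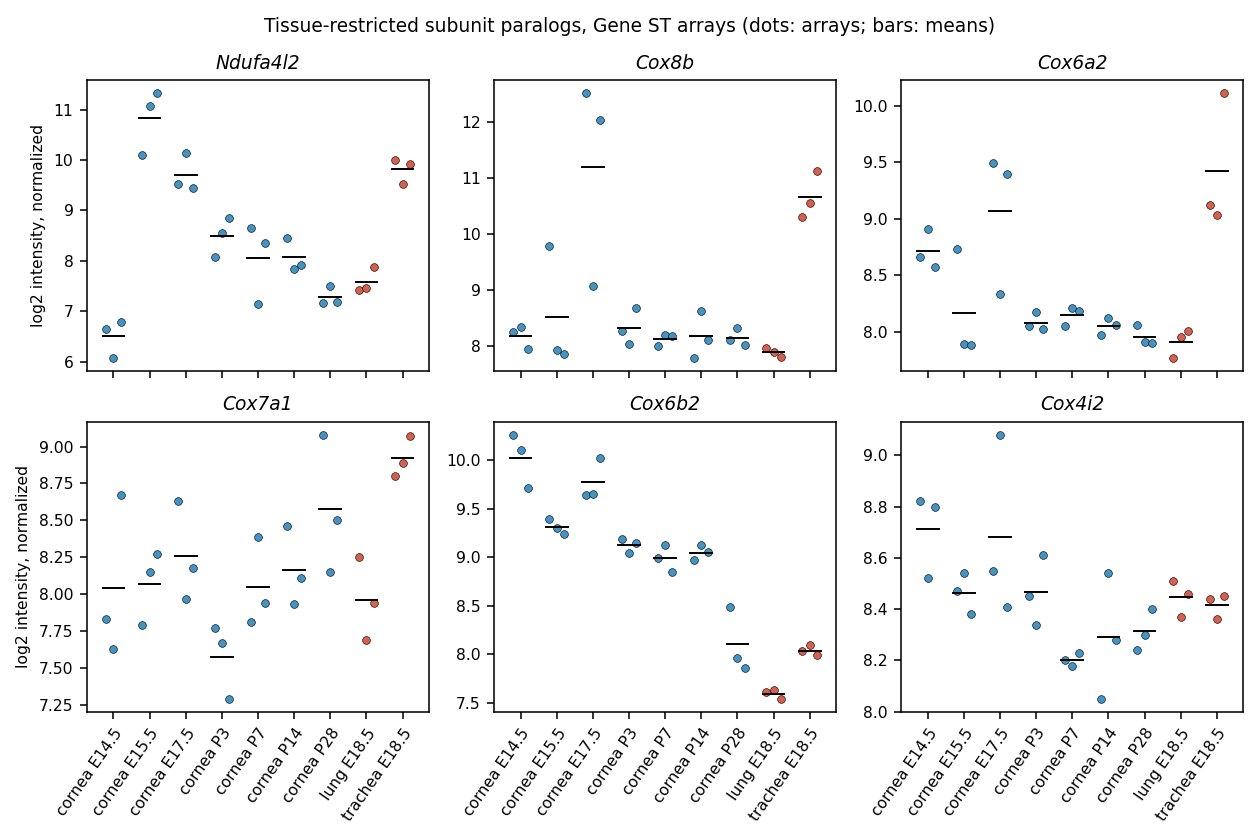
Level of Ndufa4l2, Cox8b, Cox6a2, Cox7a1, Cox6b2 and Cox4i2 on each Gene ST array (y axis, log2 intensity + 16; dots are arrays, bars group means) for the 7 cornea ages (blue) and for lung-labelled and trachea arrays at E18.5 (red). Ndufa4l2 rises from 6.08 to 6.79 at E14.5 to 10.09 to 11.32 at E15.5, Cox8b is high on 2 of the 3 E17.5 arrays, and Cox6b2 is lowest in cornea at P28.

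Trachea was higher than the lung-labelled arrays for 36 of 93 members and lower for 4 (22.0% and 20.9% of all genes). The members' median was 0.21 against -0.06 for all genes, and for 48 members all trachea arrays were above (28.2% of all genes). The higher members were 13 of 34 in complex I, 2 of 4 in complex II, 3 of 8 in complex III, 11 of 19 in complex IV, 6 of 17 in complex V and 1 of 11 assembly factors. Since the lung-labelled arrays held thymocyte genes and few lung genes, the direction is that of trachea against those arrays.

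In complex IV, all 3 muscle forms were higher in trachea. Cox8b stood at 10.30, 10.54 and 11.12 in trachea and 7.97, 7.89 and 7.80 on the lung-labelled arrays, higher by 2.77 ± 0.56 (6.81-fold, limma adjusted p = 0.000329). Cox6a2, at 9.12, 9.03 and 10.11 against 7.77, 7.95 and 8.01, was higher by 1.51 ± 0.26 (limma adjusted p = 5.82e-05), and Cox7a1, at 8.80, 8.89 and 9.07 against 8.25, 7.69 and 7.94, by 0.96 ± 0.26 (limma adjusted p = 0.00402). No arrays overlapped. All 15 skeletal muscle genes were measured, and they summed to 16.36 to 16.72 in trachea and 11.7 to 11.96 on the lung-labelled arrays; their part was not tested. The common forms moved apart: Cox8a, at 10.94, 11.17 and 10.88 against 10.22, 10.05 and 10.08, was higher by 0.88 ± 0.12 (limma adjusted p = 4.25e-06), while Cox6a1, at 9.80, 9.92 and 9.91 against 10.59, 10.00 and 10.23, was lower (-0.4 ± 0.11, limma adjusted p = 0.00537, lost without lung-labelled replicate 1). Ndufa4l2 was higher in trachea by 2.23 ± 0.33 (4.7-fold, limma adjusted p = 8.32e-06), at 10.00, 9.53 and 9.93 against 7.42, 7.47 and 7.87.

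In the other complexes the largest differences were in the stalk of the ATP synthase and in complex I. Atp5d, the delta subunit of the central stalk, stood at 12.69, 12.76 and 12.95 in trachea and 11.81, 11.80 and 10.98 on the lung-labelled arrays, higher by 1.27 ± 0.16 (limma adjusted p = 5.2e-07). Atp5o, which joins the peripheral stalk to the catalytic head, was higher by 1.12 ± 0.19 (limma adjusted p = 3.84e-05), and the complex I subunit Ndufa5 by 1.06 ± 0.13 (limma adjusted p = 4.87e-07), at 10.07, 10.59 and 10.09 against 9.08, 9.25 and 9.23. The trachea arrays lay above for all 3. The other members that were lower in trachea were the complex I subunits Ndufa12 (-0.54 ± 0.19, limma adjusted p = 0.027), Ndufa11 (-0.42 ± 0.13, limma adjusted p = 0.00839) and Ndufs6 (-0.36 ± 0.1, limma adjusted p = 0.00474). The call of Ndufa12 was lost without lung-labelled replicate 1 or 3 or trachea replicate 1 or 2. A second probe set had the same direction for 7 of the 8 called members that have one, the exception being Sdhaf4.

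Within the first set of 3′ arrays, bladder, esophagus and stomach at E18.5 were each compared with the mean of the other 2. The bladders were Get1 +/- and the other 2 tissues wildtype, and only the bladder arrays are named as taken from earlier work. Bladder enters every comparison, so tissue cannot be told apart from genotype and array source between bladder and the others. The 3 comparisons use the same 9 arrays, so a low value in 1 tissue raises the other 2. In esophagus, 33 of 94 members were lower and 3 higher (13.7% and 8.21% of all genes), with a median of -0.32 against -0.09 for all genes and 87 members below 0. For 24 members all esophagus arrays lay below those of the other tissues, against 8.26% of all genes. Complex III held 6 lower members of 8, complex I 11 of 34, complex V 6 of 17, complex IV 7 of 19, complex II 1 of 4 and the assembly factors 2 of 12. Leaving out esophagus replicate 2 took the count of called members from 36 to 16, and the fit of the compared groups alone gave 15.

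In complex III, the Rieske iron-sulfur protein Uqcrfs1 stood at 9.31, 9.15 and 9.20 in esophagus, 9.58, 9.77 and 9.56 in bladder and 9.88, 9.83 and 9.67 in stomach. The esophagus arrays lay below all others, by -0.5 ± 0.12 (limma adjusted p = 0.00385). Uqcrq was lower in esophagus by -0.61 ± 0.16 (limma adjusted p = 0.00739), Uqcrc1 by -0.56 ± 0.15 (limma adjusted p = 0.0117) and Uqcr11 by -0.51 ± 0.15 (limma adjusted p = 0.0212). All 3 calls were lost without esophagus replicate 2, and that of Uqcr11 also without replicate 1. The calls of Uqcrq and Atp5g1 were also lost when all probe sets of the gene were averaged. The complex I subunit Ndufb9, at 9.61, 9.47 and 9.87 in esophagus against 10.52, 10.30 and 10.44 in bladder and 10.09, 10.18 and 9.96 in stomach, was lower by -0.6 ± 0.13 without overlap (limma adjusted p = 0.00182). Sdhaf1 and Atp5g1 were lower by -0.58 ± 0.13 and -0.54 ± 0.12 (limma adjusted p = 0.00265 and 0.00234). Of 22 called members with a second probe set, 21 had the same direction there, all but Atp5c1.

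The 3 members higher in esophagus were restricted forms of complex IV. Cox6a2 stood at 7.24, 6.80 and 7.44 in esophagus, 5.68, 6.48 and 6.65 in bladder and 5.39, 5.63 and 4.81 in stomach, higher in esophagus by 1.38 ± 0.32 (limma adjusted p = 0.00352), without overlap. Cox8b, at 7.10, 5.96 and 7.52 against 6.25, 7.24 and 6.51 and 4.94, 5.33 and 4.62, overlapped bladder, and its difference of 1.04 ± 0.35 (limma adjusted p = 0.0375) was lost without bladder replicate 1 or 3, esophagus replicate 1 or 4, or stomach replicate 1 or 4. Cox7b2, at 6.26, 5.82 and 5.03, was higher by 0.87 ± 0.29 (limma adjusted p = 0.0341), lost without bladder replicate 1, esophagus replicate 1 or 2, or stomach replicate 1. In contrast Cox4i2 was near the floor in esophagus, at 4.32, 4.62 and 4.65 against 6.02, 5.53 and 6.13 in bladder and 5.71, 5.64 and 5.61 in stomach, lower by -1.24 ± 0.23 (limma adjusted p = 0.000623). The skeletal muscle list summed to 12.07 to 12.67 in esophagus, 12.6 to 13.05 in bladder and 8.95 to 9.4 in stomach. The pericyte list summed to 11.23 to 11.47 in esophagus, 11.81 to 12.14 in bladder and 11.22 to 11.31 in stomach. The part of either list in these differences was not tested.

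Bladder, here from Get1 +/- mice, was higher than the mean of esophagus and stomach for 25 of 94 members and lower for 2 (18.1% and 11.6% of all genes; median 0.19 against 0.09). The higher members were 11 of 34 in complex I, 7 of 19 in complex IV, 3 of 17 in complex V, 2 of 8 in complex III, 2 of 12 assembly factors and none of 4 in complex II. Cox6c, a small complex IV subunit, stood at 12.48, 12.39 and 12.62 in bladder, 11.47, 11.39 and 11.86 in esophagus and 11.75, 11.69 and 11.69 in stomach, higher by 0.85 ± 0.12 without overlap (limma adjusted p = 2.42e-05). Uqcrh, the hinge protein that meets cytochrome c, was higher by 0.62 ± 0.13 (limma adjusted p = 0.00107), and the complex I subunits Ndufs5 and Ndufs4 by 0.62 ± 0.17 and 0.58 ± 0.14 (limma adjusted p = 0.00889, lost without bladder replicate 2, and 0.00447). Both forms of subunit 4 were higher, Cox4i1 by 0.52 ± 0.14 and Cox4i2 by 0.8 ± 0.23 (limma adjusted p = 0.00631 and 0.0126), the second lost without bladder replicate 1 or 3. Ndufa4l2 was higher by 1.32 ± 0.42 (limma adjusted p = 0.0213), lost without the same arrays, at 9.06, 8.47 and 8.62 in bladder, 6.66, 8.49 and 8.73 in esophagus and 7.06, 7.07 and 6.34 in stomach. Its bladder arrays overlapped those of esophagus. The count of called members was 16 without bladder replicate 1.

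Stomach was higher for 6 members and lower for 3 (7.64% and 7.55% of all genes). Cox5a, a subunit on the matrix side of complex IV, stood at 11.25, 11.39 and 11.26 in stomach, 10.57, 10.46 and 10.67 in esophagus and 10.53, 10.40 and 10.82 in bladder, higher by 0.72 ± 0.11 without overlap (limma adjusted p = 6.85e-05). Atp5g1, at 9.92, 9.79 and 9.55 against 9.04, 8.64 and 9.14 and 9.21, 9.18 and 9.22, was higher by 0.68 ± 0.12 (limma adjusted p = 0.000323), a call lost when all probe sets of the gene were averaged. Both had all stomach arrays above the others. Sdhc and Sdhaf1 were higher by 0.54 ± 0.15 and 0.52 ± 0.13 (limma adjusted p = 0.02 and 0.00801), the first lost without stomach replicate 1 or 2. The members lower in stomach were Cox8b (-1.8 ± 0.35), Ndufa4l2 (-1.51 ± 0.42, lost without stomach replicate 4) and Cox6a2 (-1.43 ± 0.32), with limma adjusted p = 0.00108, 0.0168 and 0.00341. An F test over the 3 tissues called 42 of 94 members (36.1% of all genes). Of these members bladder was highest for 28, stomach for 12 and esophagus for 2, and esophagus was lowest for 38. The highest and lowest tissues were not tallied over all genes.

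Small intestine was compared with skin at E18.5 within the second set. The series text names the E18.5 skin arrays, but not those of small intestine, as taken from earlier work. Tissue and array source therefore cannot be told apart in this comparison. Small intestine was higher for 47 of 94 members and lower for 5 (17.7% and 19.4% of all genes), with a median of 0.36 against -0.04 and 75 members above 0. All intestinal arrays lay above skin for 46 members, against 19.0% of all genes. Without intestinal replicate 3, whose markers went against its label, 54 were higher and 4 lower (18.6% and 20.5% of all genes) and the median was 0.40. This left the skin side unchanged, where lung markers were bright on 2 of the E18.5 arrays, and their part was not tested. As deposited, 60 were higher and 4 lower, and the medians moved to 0.71 for the members and 0.07 for all genes. Leaving out any 1 of the 6 arrays gave 40 to 58 called members. The ATP synthase held 13 higher members of 17 and none lower by the brightest probe set. Atp5g1, Atp5o and Cox6c count as higher here and below, though their second probe set went the opposite way. Complex I held 15 of 34, complex II 2 of 4, complex III 4 of 8, complex IV 10 higher and 4 lower of 19, and the assembly factors 3 higher and 1 lower of 12.

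Among the ATP synthase genes, Atp5g3, another gene for the c subunit, stood at 12.89, 12.97 and 12.83 in small intestine and 12.11, 12.11 and 12.03 in skin, higher by 0.82 ± 0.11 (limma adjusted p = 7.5e-06). Atp5mpl, at 12.22, 12.14 and 11.78 against 11.01, 10.98 and 10.82, was higher by 1.11 ± 0.15, and Atp5k, the e subunit of the membrane part, by 0.99 ± 0.15. No arrays overlapped for these genes. Sdha stood at 11.31, 11.23 and 10.38 in small intestine, replicate 3 being the low one, and 9.64, 9.67 and 9.56 in skin, higher by 1.35 ± 0.19 (limma adjusted p = 9.1e-06). Ndufv3, an accessory subunit of complex I, was higher by 1.04 ± 0.12, and Ndufaf8, a complex I assembly factor, by 1.27 ± 0.18. Of 33 called members with a second probe set, 30 had the same direction there. The exceptions were Atp5g1, Atp5o and Cox6c, so no direction is read for these genes beyond the counts above. The brightest probe set of Cox6c was higher by 1.52 ± 0.14 and the second lower (-0.68).

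Complex IV held the largest differences in both directions. Cox8a, the common form of subunit 8, stood at 14.01, 13.96 and 13.78 in small intestine and 10.28, 10.56 and 10.34 in E18.5 skin, higher by 3.52 ± 0.13 (11.5-fold, limma adjusted p = 1.2e-14). In E16.5 skin, of the same set, Cox8a stood at 13.37, 13.21 and 13.36, nearer to small intestine than to E18.5 skin. The muscle form Cox8b was lower in small intestine, at 4.38, 4.02 and 4.11, next to the floor, against 8.97, 8.84 and 7.70 in E18.5 skin. Its difference was -4.34 ± 0.41 (20.2-fold, limma adjusted p = 3.43e-08). Cox6a2, at 5.05, 4.91 and 4.77 against 9.87, 9.64 and 8.69, was lower by -4.49 ± 0.37 (22.5-fold, limma adjusted p = 4.7e-09). No arrays overlapped. Cox7a1 went against the other muscle forms: it stood at 8.81, 7.77 and 6.26 in small intestine and 6.20, 6.96 and 6.03 in skin, higher by 1.22 ± 0.42 (limma adjusted p = 0.0263), with overlap through replicate 3. The difference was 1.9 ± 0.33 without that array, and the call was lost without intestinal replicate 1 or 2 or skin replicate 1 or 3. Ndufa4l2 was lower in small intestine by -2.73 ± 0.48 (limma adjusted p = 0.000129), at 7.11, 7.55 and 9.57 against 10.96, 10.90 and 10.57, and by -3.48 without replicate 3. Cox6b2 was lower by -0.62 ± 0.12 (limma adjusted p = 0.000372), and Ndufaf2 by -0.68 ± 0.21 (limma adjusted p = 0.0126), lost without intestinal replicate 3 or skin replicate 2. Skeletal muscle genes summed to 8.49 to 10.04 in small intestine and 15.37 to 15.88 in skin, beside the differences in Cox8b and Cox6a2, and their part was not tested.

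**Figure D3:**
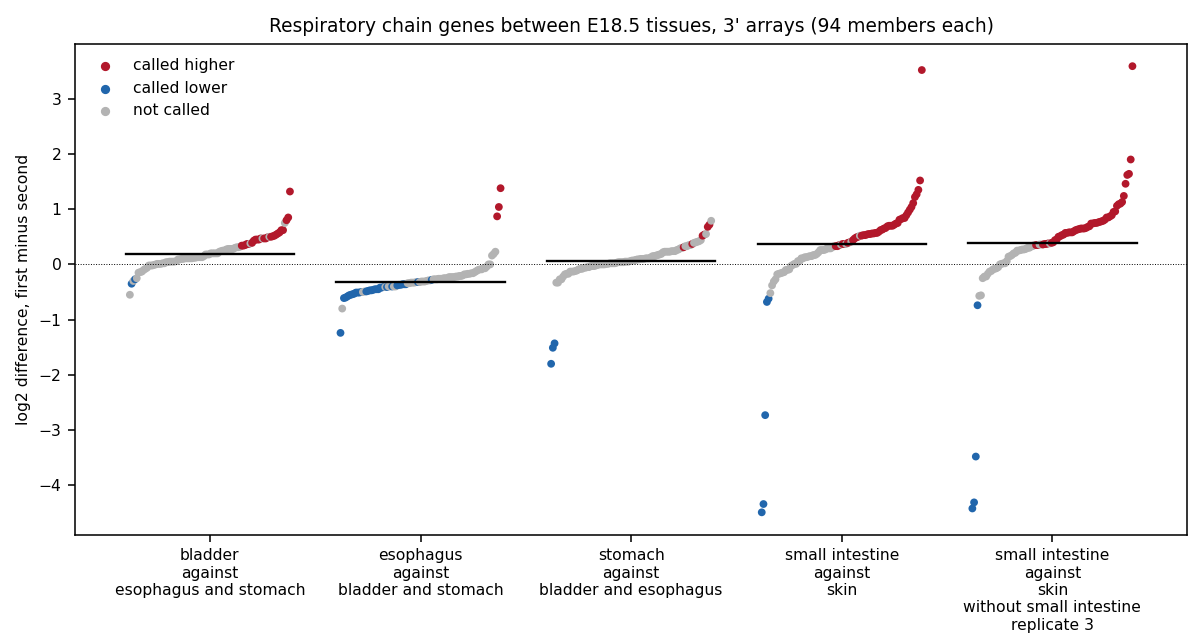
Log2 differences of the 94 members between E18.5 tissues on 3′ arrays (y axis), sorted from low to high within each of 5 comparisons (x axis): bladder, esophagus and stomach each against the mean of the other two, and small intestine against skin with and without small intestine replicate 3. Red points were called higher, blue lower and grey not called, and the black line is the members' median, which is 0.19, -0.32, 0.06, 0.36 and 0.40 in turn.

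In skin from E16.5 to E18.5, both within the second set, 17 members rose and 8 fell (7.11% and 5.58% of all genes). As deposited 12 rose and 13 fell (48.0% of the called members higher, against 68.0% after quantile normalization). Without E16.5 replicate 3 the count of calls was 15. Lung markers, bright on 2 of the E18.5 arrays, were not tested for a part in this step. The series text names the E18.5 skin arrays, but not those of E16.5, as taken from earlier work, so age and array source cannot be told apart. The rises were in complexes I (6 of 34), II (2 of 4), III (3 of 8) and IV (5 of 19) and in 1 assembly factor, and complex V held 2 falls and no rise. Cox8a had the largest fall, by 2.92 ± 0.13 (7.58-fold, limma adjusted p = 1.39e-12), from 13.37, 13.21 and 13.36 at E16.5 to 10.28, 10.56 and 10.34 at E18.5. Sdhb, the iron-sulfur subunit of complex II, fell by 1.64 ± 0.16 (limma adjusted p = 4.68e-07), from 11.74, 11.71 and 11.79 to 9.99, 10.44 and 9.89. Sdhd, a membrane anchor of the same complex, rose by 2.77 ± 0.35 (limma adjusted p = 1.42e-05), from 7.55, 7.57 and 5.48 to 9.53, 9.90 and 9.47. In each of these genes the ages did not overlap. Uqcr10 rose by 1.43 ± 0.15 and the supercomplex factor Cox7a2l by 0.97 ± 0.11 (limma adjusted p = 9.58e-07 and 2.28e-06), and Cox7a1 by 1.64 ± 0.42 (limma adjusted p = 0.0114), lost without E18.5 replicate 2. A second probe set had the same direction for 10 of 16 called members, and Cox6c, Ndufaf8, Ndufb6, Ndufb8, Sdhc and Uqcrh went the opposite way on it.

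In bladder from E14.5 to E16.5, most members lay higher at the later age but none passed the threshold. Of 94 members 79 lay above 0, the median was 0.20 against 0.02 for all genes, and for 57 all E16.5 arrays lay above both E14.5 arrays, against 17.8% of all genes. Limma called 0, with 15 at an unadjusted p under 0.05; of all genes 0.324% were called higher and 0.0989% lower. From wildtype E16.5 to Get1 +/- E18.5 bladder, age and genotype cannot be told apart. There 7 members rose and 2 fell (8.41% and 6.69% of all genes), 8 of the 9 in complex IV. A second probe set had the same direction for 4 of 5 called members, and Cox7c, 1 of the 2 falls, went the opposite way on it. Cox8b stood at 5.75, 4.12 and 4.77 at E16.5 and 6.25, 7.24 and 6.51 at E18.5, and rose by 1.78 ± 0.41 without overlap (limma adjusted p = 0.00485). Cox6a2, at 4.54, 4.12 and 5.79 against 5.68, 6.48 and 6.65, rose by 1.45 ± 0.37 with overlap (limma adjusted p = 0.0101), lost without E16.5 replicate 1 or 2 or E18.5 replicate 3, and Cox7a1 by 1.25 ± 0.42 (limma adjusted p = 0.0488), lost without any 1 of the 6 arrays. The skeletal muscle list summed to 8.95 on both E14.5 arrays, 10.37 to 11.25 at E16.5 and 12.6 to 13.05 at E18.5, and smooth muscle genes to 13.77 to 14.14, 14.5 to 14.68 and 15.1 to 15.17; their part was not tested. Cox6c rose by 0.78 ± 0.14 and Cox7a2l by 0.58 ± 0.11 (limma adjusted p = 0.000645 and 0.000831), both without overlap. Ndufa4l2 went from 6.20 and 6.30 to 7.40, 7.14 and 7.53 and then 9.06, 8.47 and 8.62, arrays of successive ages never overlapping, but its second step (1.36 ± 0.48) was not called (limma adjusted p = 0.064). The count of 9 was 4 without E16.5 replicate 1 and 5 without E16.5 replicate 2, E16.5 replicate 3 or E18.5 replicate 3.

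**Figure D4:**
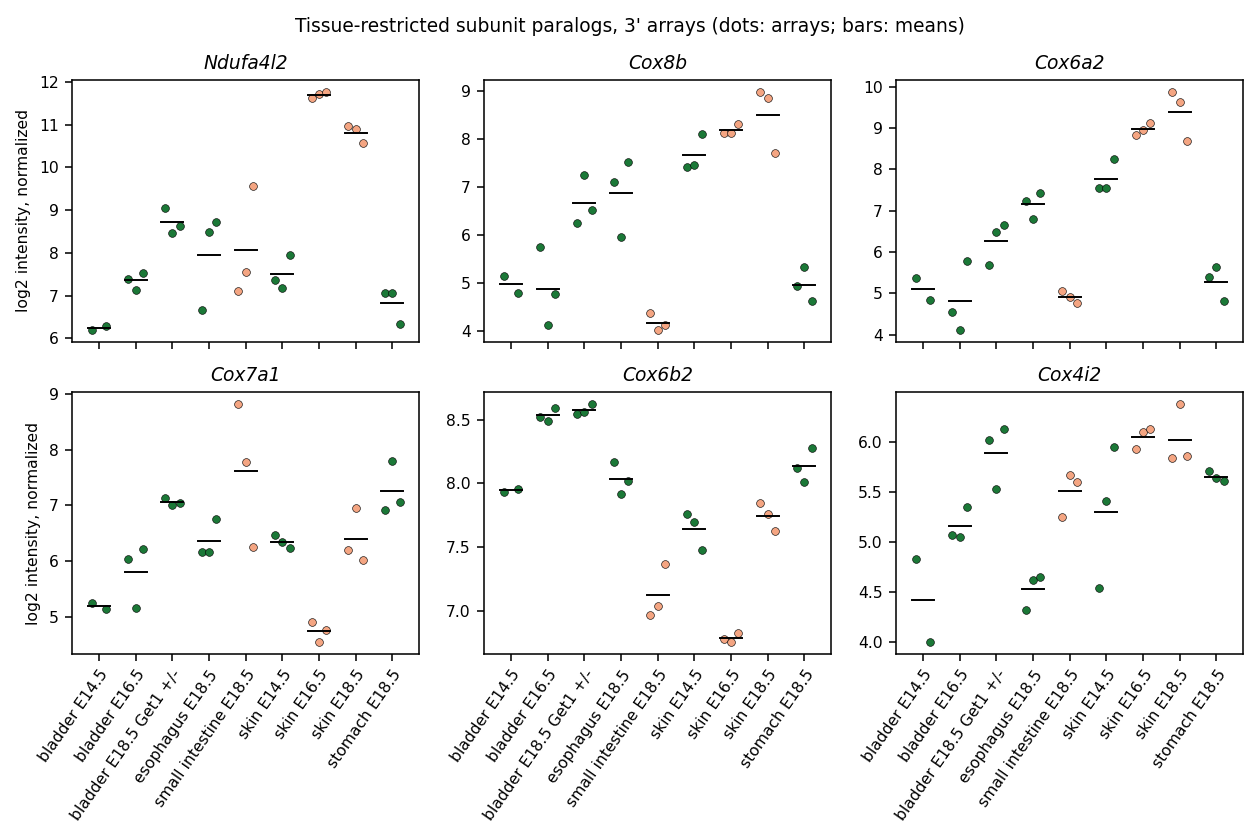
Level of the same 6 members on each 3′ array (y axis, log2 intensity + 16; dots are arrays, bars group means) by tissue and age, coloured by the set of arrays the group falls in (green: bladder, esophagus, stomach and E14.5 skin; orange: small intestine and E16.5 and E18.5 skin). Cox8b and Cox6a2 are highest in E18.5 skin and near the floor in small intestine, and Ndufa4l2 is highest in E16.5 skin (11.62 to 11.76).

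Read across all 3′ groups, Cox8b was highest in E18.5 skin (8.51 ± 0.7, SD, n = 3), E16.5 skin (8.18 ± 0.11) and E14.5 skin (7.65 ± 0.38), then esophagus (6.86 ± 0.8), E18.5 bladder (6.66 ± 0.52), stomach (4.97 ± 0.36), E14.5 bladder (4.96 ± 0.25, n = 2), E16.5 bladder (4.88 ± 0.82) and small intestine (4.17 ± 0.19). Neighbours in this order overlapped, except E16.5 with E14.5 skin and E18.5 bladder with stomach. The order runs across the 2 sets of arrays, between which tissue or age and array set cannot be told apart. Over the 26 arrays, the level of Cox8b went most closely with Klhl41 (Pearson r = 0.962), Tmem182 (0.961), Mylpf (0.957), Sln (0.956) and Myl1 (0.949), and that of Cox6a2 with Actn2 (0.979), Myoz2 (0.975), Sln (0.971), Myl1 (0.969) and Myom2 (0.967). On the 27 Gene ST arrays the genes nearest to Cox8b were Myoz2 (0.952), Apobec2 (0.93), Fabp3 (0.928), Klhl31 (0.926) and Csrp3 (0.92). Myoz2, Actn2 and Mylpf encode sarcomere proteins. Cox7a1 had no gene above 0.871 in either table (Oas1a on the 3′ arrays). Ndufa4l2 went most closely with Amotl1 (0.948) and the muscle creatine kinase Ckm (0.945) on the 3′ arrays, and with Ankrd50 (0.887), Acbd3 (0.877), Pdzrn4 (0.876), Rgl1 (0.87) and P4ha2 (0.868) on the Gene ST arrays. Arrays of a group and of a set share much of this variation, so the coefficients are descriptions.

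Genes of neighbouring pathways did not all move with the respiratory chain. At E15.5 in cornea, where 30 members fell, 7 of 15 genes of fatty acid oxidation rose and none fell, where 15.0% of all genes rose and 11.4% fell, led by Acadl (1.22 ± 0.18), which dehydrogenates long-chain acyl-CoA, and Cpt1a (1.07 ± 0.15), which admits fatty acids to the mitochondrion. Of 16 genes of the citric acid cycle, 3 rose and 4 fell. Cycs, the cytochrome c that links complexes III and IV, fell by 0.78 ± 0.15 (limma adjusted p = 0.00044). Of 14 regulators of mitochondrial biogenesis, the coactivator Ppargc1a rose by 1.27 ± 0.22, and Gabpb1 (-0.61 ± 0.14) and Nrf1 (-0.37 ± 0.13) fell. The counts of rises and falls over that list are not given here. Of 32 assembly factors outside the members, 2 rose and 4 fell. By P28, 10 of 15 fatty acid oxidation genes stood above E14.5 and none below, with Acadm higher by 2.0 ± 0.17, while 8 of 18 glycolysis genes were lower and 2 higher (19.0% of all genes were higher and 23.9% lower).

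In trachea, 8 of 16 citric acid cycle genes were higher than on the lung-labelled arrays and none lower, as were 10 of 18 glycolysis genes with 2 lower, led by the muscle enolase Eno3 (4.29 ± 0.37). Of all genes 22.0% were higher and 20.9% lower. Ppargc1a was higher by 2.4 ± 0.22, but 6 of the 14 biogenesis regulators were lower, Gabpb1 by -1.04 ± 0.14 and Nrf1 by -0.95 ± 0.13 among them. In esophagus, 5 of 16 citric acid cycle genes, 11 of 19 glycolysis genes, 7 of 15 fatty acid oxidation genes and 10 of 32 other assembly factors were lower, and 0, 1, 1 and 1 higher, against 13.7% of all genes lower and 8.21% higher. Cycs and the complex III cytochrome Cyc1 were lower there by -0.72 ± 0.14 and -0.6 ± 0.15 (limma adjusted p = 0.000637 and 0.0062). In bladder 11 of 19 glycolysis genes were higher and none lower, and 5 of 13 hypoxia-inducible targets were higher and 1 lower (18.1% and 11.6% of all genes). In small intestine against skin, 11 of 15 fatty acid oxidation genes and 7 of 16 citric acid cycle genes were higher and none lower (13 and 9 higher without replicate 3), against 17.7% of all genes higher and 19.4% lower. The nuclear receptor Esrra, which acts on respiratory chain genes with Ppargc1a, was higher there by 5.82 ± 0.25 (limma adjusted p = 2.62e-13) and Ppargc1a by 1.13 ± 0.22 (limma adjusted p = 0.000274). Both are single genes of the list of biogenesis regulators, whose counts in this comparison are not given here.

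The comparisons across the 2 sets of 3′ arrays gave many more calls, in which tissue or age and array set cannot be told apart. From E14.5 to E16.5 skin, 43 of 94 members were higher and 27 lower (27.6% and 36.8% of all genes), and the second probe set had the same direction for 26 of 40 called members. The interaction term called this change more positive in skin than in bladder for 31 members and more negative for 29 (21.5% and 30.4% of all genes). As deposited these were 39 and 23 (62.9% of the called members more positive, against 51.7% after quantile normalization). Each E18.5 tissue against the mean of the other 4 gave 21 higher and 24 lower in bladder, 9 and 58 in esophagus, 55 and 16 in small intestine, 32 and 34 in skin and 21 and 33 in stomach. Over all genes the shares called higher and lower were 32.1% and 22.6%, 29.4% and 31.7%, 30.0% and 38.4%, 31.9% and 38.7%, and 29.7% and 25.3%. As deposited, the counts were 16 and 33 in bladder and 16 and 50 in stomach. Of the called members 32.7% and 24.2% were higher, against 46.7% and 38.9% after quantile normalization. The median of all genes in the skin comparison moved from -0.14 to -0.28. An F test over the 5 tissues called 88 members, as it did 87.0% of all genes.

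**Figure D5:**
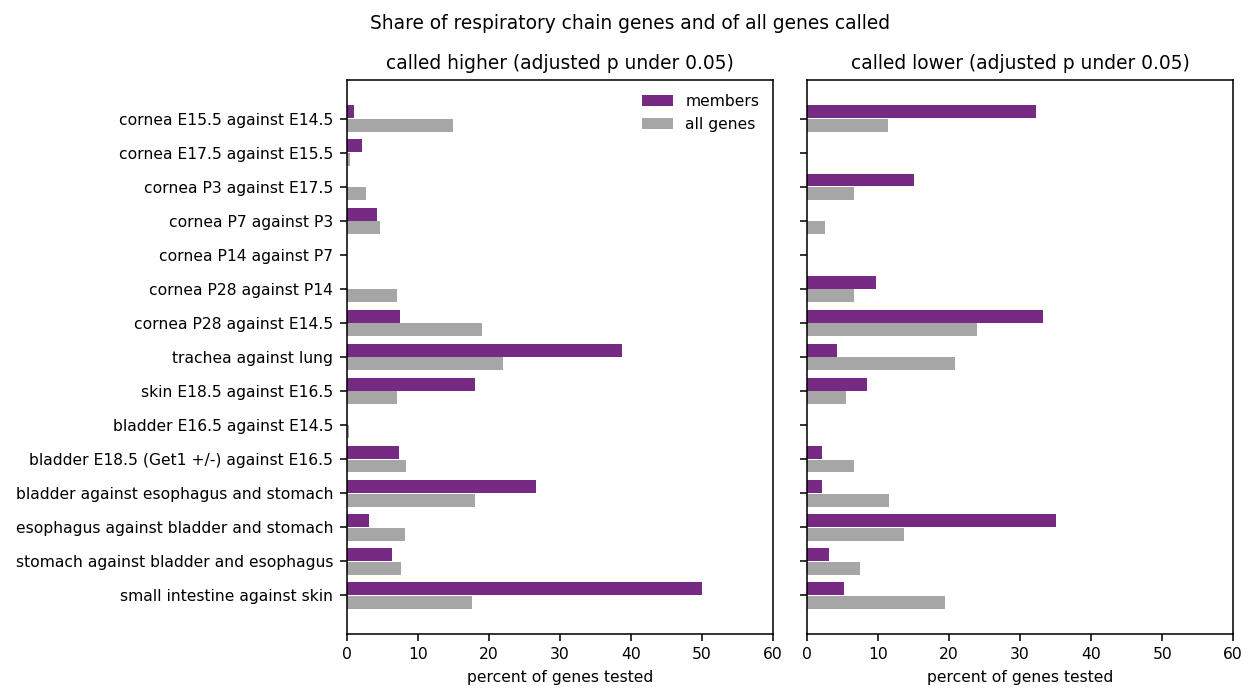
Percent of members (purple) and of all genes of the table (grey) called higher (left panel) and lower (right panel; x axes, percent of genes tested) in 15 comparisons within a set of arrays. The share of members lies above that of all genes in several comparisons. Among them are falls in cornea E15.5 (32.3% against 11.4%), in cornea P3 (15.1% against 6.69%) and in esophagus (35.1% against 13.7%). Rises in trachea (38.7% against 22.0%), in small intestine against skin (50.0% against 17.7%) and in E18.5 skin (18.1% against 7.11%) are others. In some it lies below, such as rises in cornea E15.5 (1.1% against 15.0%).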

How the data were processed

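The submitters deposited 2 tables of PLIER intensities, linear and never negative (0 to 78718 on 27 Gene ST arrays and 0 to 134762 on 26 3′ arrays), made with Affymetrix Expression Console 1.1.1 and PLIER 2.0, per the submitters' processing notes. Any further scaling was not given in the sources used here. Arrays give no count depth, so the number of arrays limits the precision. From the deposited intensities, log2(intensity + 16) was taken and quantile-normalized within each table. The platform annotation names 1 gene for 21789 of 35556 Gene ST probe sets (1621 several, 12146 none) and for 34958 of 45101 3′ probe sets (932 several, 9211 none); symbols were updated through RefSeq, which found 99.58% and 99.42% of them. The brightest probe set over all arrays stood for each gene. Levels of different probe sets are not compared.

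All groups of a table entered 1 limma fit (limma 3.58.1, R 4.3.3; tables were handled with Python 3.11.15, pandas 2.3.3 and numpy 2.4.6), tested two-sided with Benjamini-Hochberg adjustment over all genes of the table and called at adjusted p under 0.05. The scripts were tested on simulated data. Members and gene lists were chosen with earlier results of these data known, and no test was made over a list. In each comparison, called members with the largest log2 change are named (up to 8 higher and 8 lower, those whose arrays do not overlap first), with the paralog families, up to 3 called genes per pathway list, and for 5 restricted paralogs the 5 genes with the highest correlation.

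Comparisons within the 2 sets of 3′ arrays were added after the data were seen. Replicate numbers are shared by the cornea ages, and by trachea and lung, without a stated meaning. The deviations of same-numbered arrays from their group means correlated above 0.1 for every number only between P28 and P14 of cornea (0.242, 0.133 and 0.134). The fit with the replicate block gave each number 1 effect shared by all 27 Gene ST arrays. It called 9 members between P14 and P28, as did the fit without it. P28 and P14 were not paired by themselves, so the equal count does not answer whether pairing them matters. Replicates 1 and 2 of E14.5 skin share an identifier in their titles and were also averaged as 1 sample. Alternatives were a pseudocount of 1, the values as deposited, a filter on dim genes, the mean of all probe sets, a trended robust fit, only the groups compared, a fold limit of 2, the replicate block and leaving out each array.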

Additional observations from a re-analysis of the deposited data

Results flagged for a closer look

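Between E14.5 and E16.5, 60 of 94 members changed differently in dorsal skin and in bladder by the interaction term of the limma fit. The change was more positive in skin for 31 and more negative for 29, where 21.5% and 30.4% of all genes were called. As deposited, the counts were 39 and 23. The E14.5 and E16.5 skin arrays lie in different sets of arrays and the bladder arrays in 1 set, so tissue and array set cannot be told apart in this result.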

How the results depend on the processing

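Counts below are of called members. No member named in a comparison changed direction under any alternative run for it, and leaving out single arrays left them on the same side of the threshold in 668 cases and lost the call in 136. With a fold limit of 2 the counts were 1, 1, 2, 0 and 1 in the cornea steps at E15.5, E17.5, P3, P7 and P28, 2 for P28 against E14.5, 8 for the F test over ages, 6 for trachea, 36 and 7 for skin at E16.5 and E18.5, 4 for bladder at E18.5 and 36 for the interaction. With the same limit they were 5, 16, 29, 19 and 6 for bladder, esophagus, small intestine, skin and stomach against the other 4 tissues, 1, 3 and 3 for bladder, esophagus and stomach within their set, 4 for the F test of those 3, and 10 for small intestine against skin. Fitted with only the groups compared, they were 20, 0, 0 and 0 at E15.5, E17.5, P3 and P7, 5 for bladder at E18.5, 15 for bladder and 15 for esophagus within their set, and 33 for small intestine against skin. Fitting only the groups compared lost the call of 38 named members, and the other settings, in which all arrays were kept, of 0 to 14. As deposited, the counts were 1 at E17.5, 10 at P7 and 18 at P28 against P14. Without dim genes, P7 gave 7 and bladder at E16.5 gave 1; with all probe sets averaged, bladder at E16.5 gave 2. A pseudocount of 1 gave 1 at E17.5 and 5 for bladder at E18.5, a trended robust fit 15 for stomach within its set, normalization within 1 set 0 at E17.5, and the fit without 3 muscle-bright arrays 7 at E17.5. The replicate block moved 1 count of calls by over 1.5 times, that at E17.5, from 2 to 1, left 55 named members on their side of the threshold and lost the call of 1. Restricted to tissues of 1 set, bladder, esophagus, stomach and the F test gave 27, 36, 9 and 42 in place of 45, 67, 54 and 88.

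Leaving out each array gave 22 to 28 at E15.5, 0 to 5 at E17.5, 6 to 11 at P3, 1 to 6 at P7, 5 to 12 at P28 against P14, 29 to 33 for P28 against E14.5, 40 to 53 for the F test over ages, 31 to 41 for trachea, 66 to 69 and 15 to 21 for skin at E16.5 and E18.5, 4 to 7 for bladder at E18.5, and 50 to 56 for the interaction. It gave 40 to 48, 60 to 69, 66 to 74, 60 to 68 and 42 to 55 for bladder, esophagus, small intestine, skin and stomach against the other 4 tissues and 85 to 90 for their F test. Within a set it gave 16 to 28, 16 to 42 and 6 to 12 for bladder, esophagus and stomach, 28 to 47 for their F test and 40 to 58 for small intestine against skin. The count was 0 each time for P14 against P7 in cornea and for E16.5 against E14.5 in bladder. The number of arrays, 2 or 3 a group, limits the precision throughout, and differences of members near the floor of 4 are compressed. Where a count moved under a setting that neither drops arrays or groups nor raises the threshold, the cause was not tested.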
